A study of Mus musculus with 6 samples.

Results

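Mitochondrial ribosomal proteins were taken as every probe whose gene symbol begins with Mrpl or Mrps followed by a number. This rule, which uses no measured value, gave 105 probes for 72 genes out of 25697 probes and 18138 symbols in the liver table. Of these, 65 probes for 44 genes had Mrpl symbols (large subunit) and 40 probes for 28 genes had Mrps symbols (small subunit). Total liver RNA of male FVB pups at postnatal day 6 was measured on Illumina MouseRef-8 bead arrays, with 3 hSRY-OFF and 3 hSRY-ON arrays from different mice. All 6 pups carried the Signalox-hSRY transgene, in which a CAG promoter is followed by a floxed DsRed2 cassette and then by FLAG-tagged human *SRY* with EGFP. In hSRY-OFF pups the cassette was not recombined. In hSRY-ON pups it had been removed in the early embryo by Cre from a *Ddx4*-Cre mother, and the pups themselves did not carry *Ddx4*-Cre, so activation was not limited to the liver. By the study's methods, Cre from the oocyte acts whatever the pup's own *Ddx4*-Cre status. Unrecombined hSRY-OFF pups would therefore have other mothers, so mother and litter cannot be told apart from group. The study also reports little suckling, slow growth and some deaths before this age among hSRY-ON pups, which cannot be told apart from group either. The array has no probe for the human transgene, so the group labels could not be checked on it. In whole-liver RNA, fewer cells of a type and less RNA per cell cannot be told apart.

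The mitochondrial ribosome translates the few proteins encoded by mitochondrial DNA, all of them core subunits of the respiratory chain and of ATP synthase. Its RNA is made inside the organelle, whereas all of its proteins are encoded in the nucleus, translated in the cytosol and imported. The small subunit binds the messenger RNA and reads the codons, and the large subunit joins the amino acids. Some of its proteins have a bacterial counterpart, and others were added during the evolution of mitochondria. Hepatocytes hold many mitochondria, which carry out fatty acid oxidation, ketone synthesis and part of the urea cycle.

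Most mitochondrial ribosomal protein probes were detected in both groups. A probe was tested when its detection p-value was under 0.01 on at least 3 of the 6 arrays, and 83 member probes for 64 genes passed (38 large-subunit and 26 small-subunit genes), 80 of them detected on all 6 arrays. Of the 22 untested probes, 20 were detected on 0 arrays and 2 on 1 array, and 13 of the 22 belong to genes that another probe measured. The 8 genes without a tested probe were *Mrpl15*, *Mrpl19*, *Mrpl21*, *Mrpl32*, *Mrpl39*, *Mrpl45*, *Mrps14* and *Mrps15*. No tested member probe was detected in 1 group only (0 of 83).

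Between hSRY-ON and hSRY-OFF livers the family as a whole moved little, while 16 of its genes had a called probe. With limma at a Benjamini-Hochberg adjusted p under 0.05, 6 member probes (5 genes) were higher and 15 (11 genes) were lower in hSRY-ON, and 62 were not called. That is 25.3% of the tested members, beside 33.1% of all 10734 tested probes, so members were called at a lower rate than the array as a whole. Higher calls made up 7.23% of the members and 15.8% of all probes, and lower calls 18.1% and 17.2%, so the share of lower calls was close to the background and the share of higher calls was under it. The 3 hSRY-ON values lay below all 3 hSRY-OFF values at 27 member probes and above them at 14, while 42 overlapped. Over all tested probes the corresponding shares without overlap were 24.6% below and 25.4% above. Without hSRY-OFF replicate 1, 3 members were called higher and 8 lower. The counts were also 3 and 8 without hSRY-OFF replicate 2 and were 6 and 9 without hSRY-OFF replicate 3. The percentages called over all probes fell as well, to 17.4, 18.8 and 24.7.

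The sizes of the differences were also modest. The median fitted difference of the members, hSRY-ON minus hSRY-OFF, was -0.14 on the log2 scale, with quartiles of -0.27 and 0.13 and extremes of -1.22 and 0.74. The median absolute difference was 0.22, beside 0.34 over all tested probes. Differences of at least 2-fold were found at 4 members (4.82%, beside 12.8% of all probes). The 95% confidence interval lay wholly within 1.5-fold in either direction at 50 members (60.2%, beside 31.8% of all probes), none of them called (50 of the 62 probes without a call).

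**Figure D1:**
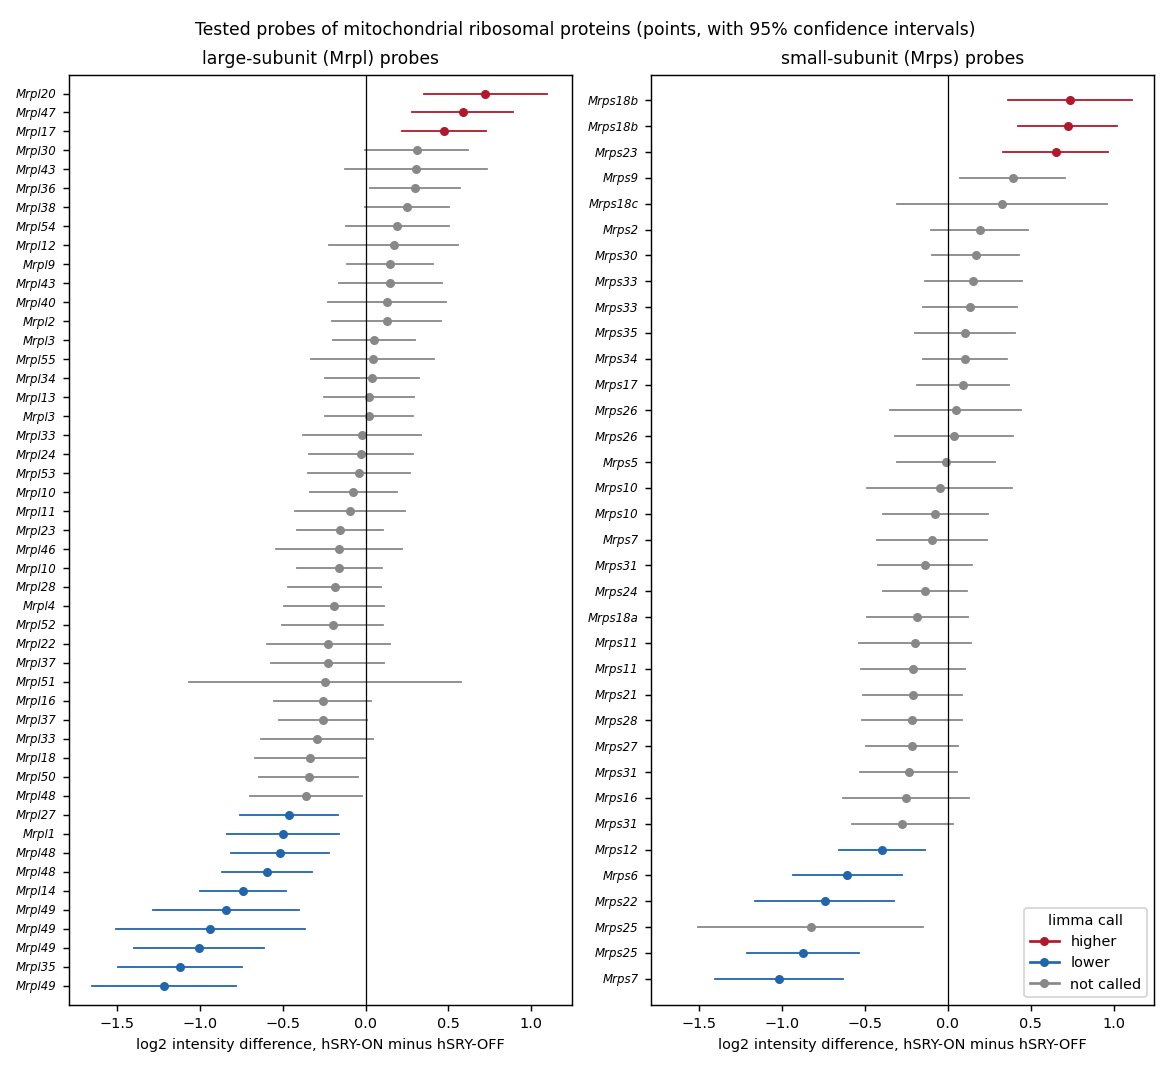
Fitted log2 intensity difference (x axis, hSRY-ON minus hSRY-OFF) of all 83 tested probes, one row per probe, for 48 large-subunit probes (left) and 35 small-subunit probes (right); points are estimates, lines are 95% confidence intervals and colours give the limma call. Most intervals span 0, and the 15 lower and 6 higher calls sit at the ends of both panels.

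In the large subunit 6 genes were lower in hSRY-ON, led by *Mrpl49* and *Mrpl35*. *Mrpl49* encodes a protein that bacterial ribosomes lack, and all 4 of its probes were called. At its brightest probe the hSRY-OFF arrays read 11.15, 11.06 and 11.06 and the hSRY-ON arrays 10.01, 9.47 and 10.14 on the log2 scale. The groups did not overlap, and the fitted fall was 2.33-fold (log2 difference -1.22, SE 0.19, adjusted p = 0.0032). At the other *Mrpl49* probes the log2 differences were -1.004, -0.94 and -0.84. *Mrpl35*, whose product has a bacterial counterpart in the large subunit, read 8.05, 8.03 and 8.11 in hSRY-OFF against 6.87, 6.70 and 7.25 in hSRY-ON. Its fall was 2.17-fold (log2 difference -1.12, SE 0.16, adjusted p = 0.0025), and no hSRY-ON array came near the hSRY-OFF range. *Mrpl14*, a conserved protein on the face that meets the small subunit, was 12.28, 12.31 and 12.28 in hSRY-OFF and 11.46, 11.58 and 11.63 in hSRY-ON. The fall was 1.67-fold (log2 difference -0.74, SE 0.11, adjusted p = 0.0031). The calls of *Mrpl35*, of *Mrpl14* and of the 2 *Mrpl49* probes that changed most held without any one array. Of the other *Mrpl49* probes, ILMN_2929031 lost its call without any one of the hSRY-OFF arrays (adjusted p 0.0646, 0.0711 and 0.0729) and ILMN_2701363 lost it without hSRY-OFF replicate 1 (0.0536).

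The remaining large-subunit falls were smaller. *Mrpl48*, another protein particular to mitochondria, read 10.24, 10.16 and 10.26 in hSRY-OFF and 9.58, 9.55 and 9.75 in hSRY-ON at its most changed probe. That is a 1.51-fold fall (log2 difference -0.59, SE 0.12, adjusted p = 0.0084). A second *Mrpl48* probe was lower by a log2 difference of -0.52 and the remaining probe, at -0.36 (adjusted p = 0.0958), was called only without hSRY-ON replicate 3 among the single arrays left out (adjusted p = 0.0343). *Mrpl1*, part of the mobile stalk beside the exit site for transfer RNA, read 10.38, 10.39 and 10.41 in hSRY-OFF and 9.82, 9.71 and 10.15 in hSRY-ON (log2 difference -0.50, SE 0.14, adjusted p = 0.0336). *Mrpl27*, the counterpart of a bacterial protein at the site of peptide bond formation, read 10.60, 10.61 and 10.77 against 10.13, 10.11 and 10.35. Its log2 difference was -0.46 (SE 0.13, adjusted p = 0.0284), and it was named after its values were seen. At each of the probes whose arrays are given here, hSRY-ON replicate 3 was the one nearest to hSRY-OFF. The *Mrpl1* and *Mrpl27* calls were lost without any one array other than hSRY-ON replicate 3, with adjusted p between 0.0791 and 0.1025 for *Mrpl1* and between 0.0648 and 0.0937 for *Mrpl27*. The second *Mrpl48* probe lost its call without any one of the hSRY-OFF arrays (0.0742, 0.0650 and 0.0532).

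In the small subunit 5 genes were lower. *Mrps7*, a conserved protein of the small-subunit head, read 8.69, 8.75 and 8.34 in hSRY-OFF and 7.42, 7.52 and 7.80 in hSRY-ON at ILMN_2981821. The fall was 2.02-fold there (log2 difference -1.02, SE 0.16, adjusted p = 0.0040). Its other probe, ILMN_2981818, read 10.86, 10.98 and 11.20 against 10.84, 10.82 and 11.08, which overlap (log2 difference -0.10, SE 0.14, adjusted p = 0.63), so the 2 probes of *Mrps7* did not give the same call. *Mrps25*, a protein without a bacterial counterpart, read 7.14, 7.20 and 7.09 in hSRY-OFF and 6.43, 6.01 and 6.36 in hSRY-ON (1.83-fold lower, log2 difference -0.87, SE 0.14, adjusted p = 0.0044). Its second tested probe had a similar difference (-0.83) with a wider error (SE 0.29) and was not called (adjusted p = 0.0629), since hSRY-ON replicate 2 read 5.66 there and the other hSRY-ON arrays 6.80 and 6.71. Without hSRY-ON replicate 2 that probe was called at -0.47 (adjusted p = 0.0321), and without hSRY-ON replicate 3 at -0.99 (0.0436).

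*Mrps22*, also particular to mitochondria, read 10.99, 10.80 and 10.86 in hSRY-OFF and 10.07, 9.85 and 10.50 in hSRY-ON (1.67-fold lower, log2 difference -0.74, SE 0.18, adjusted p = 0.0178). *Mrps6* read 8.95, 9.31 and 9.10 against 8.45, 8.43 and 8.66 (log2 difference -0.61, SE 0.14, adjusted p = 0.0153). *Mrps12*, the protein of the decoding centre, read 10.80, 10.81 and 10.79 in hSRY-OFF and 10.38, 10.33 and 10.49 in hSRY-ON (log2 difference -0.40, SE 0.11, adjusted p = 0.0290). Groups did not overlap for any of these 3 genes. The *Mrps12* call was lost without any one array other than hSRY-ON replicate 3 (adjusted p between 0.0624 and 0.1024). That of *Mrps22* was lost without any hSRY-OFF array or hSRY-ON replicate 1 (0.0525 to 0.0742), and that of *Mrps6* without hSRY-OFF replicate 2 (0.0615).

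Higher transcript levels in hSRY-ON were found for 5 genes, 3 of the large and 2 of the small subunit. *Mrps18b* encodes one of 3 mammalian relatives of bacterial protein S18, and both of its probes rose. One read 9.32, 9.05 and 9.40 in hSRY-OFF and 9.98, 9.79 and 10.21 in hSRY-ON (1.67-fold higher, log2 difference 0.74, SE 0.16, adjusted p = 0.0120). The other read 11.38, 11.13 and 11.22 against 11.91, 11.90 and 12.09 (log2 difference 0.72, SE 0.13, adjusted p = 0.0055). The paralogs behaved otherwise: *Mrps18a* read 10.47, 10.47 and 10.54 in hSRY-OFF and 10.18, 10.23 and 10.51 in hSRY-ON (log2 difference -0.19, SE 0.13, adjusted p = 0.31). *Mrps18c* read 7.36, 7.27 and 7.91 against 7.41, 7.74 and 8.36 (log2 difference 0.33, SE 0.27, adjusted p = 0.39). Neither paralog passed the test, and whether their differences depart from that of *Mrps18b* was not tested. Without hSRY-OFF replicate 2 the first *Mrps18b* probe just missed the threshold (adjusted p 0.05002) and the second kept its call.

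*Mrpl20*, the counterpart of a bacterial protein needed to assemble the large subunit, read 6.75, 6.81 and 7.17 in hSRY-OFF and 7.54, 7.53 and 7.82 in hSRY-ON (1.65-fold higher, log2 difference 0.72, SE 0.16, adjusted p = 0.0129). *Mrps23*, a small-subunit protein particular to mitochondria, read 7.99, 8.23 and 8.01 against 8.87, 8.57 and 8.75 (1.57-fold, log2 difference 0.65, SE 0.13, adjusted p = 0.0105). *Mrpl47*, the mammalian form of bacterial protein L29 near the exit of the peptide tunnel, read 9.50, 9.41 and 9.18 against 10.00, 9.86 and 9.99 (log2 difference 0.59, SE 0.13, adjusted p = 0.0134). *Mrpl17* had the closest hSRY-ON replicates, at 12.47, 12.54 and 12.50, above hSRY-OFF values of 12.02, 11.98 and 12.09 (log2 difference 0.47, SE 0.11, adjusted p = 0.0150). All 4 genes were higher on every hSRY-ON array than on any hSRY-OFF array. The calls of *Mrpl20* (adjusted p 0.0591 and 0.0552) and *Mrpl17* (0.0631 and 0.0633) were lost without hSRY-OFF replicate 1 or 2, and that of *Mrps23* without replicate 1 (0.0521). Median scaling in place of quantile normalization ended the calls of *Mrpl17* (0.15) and *Mrpl47* (0.0584).

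**Figure D2:**
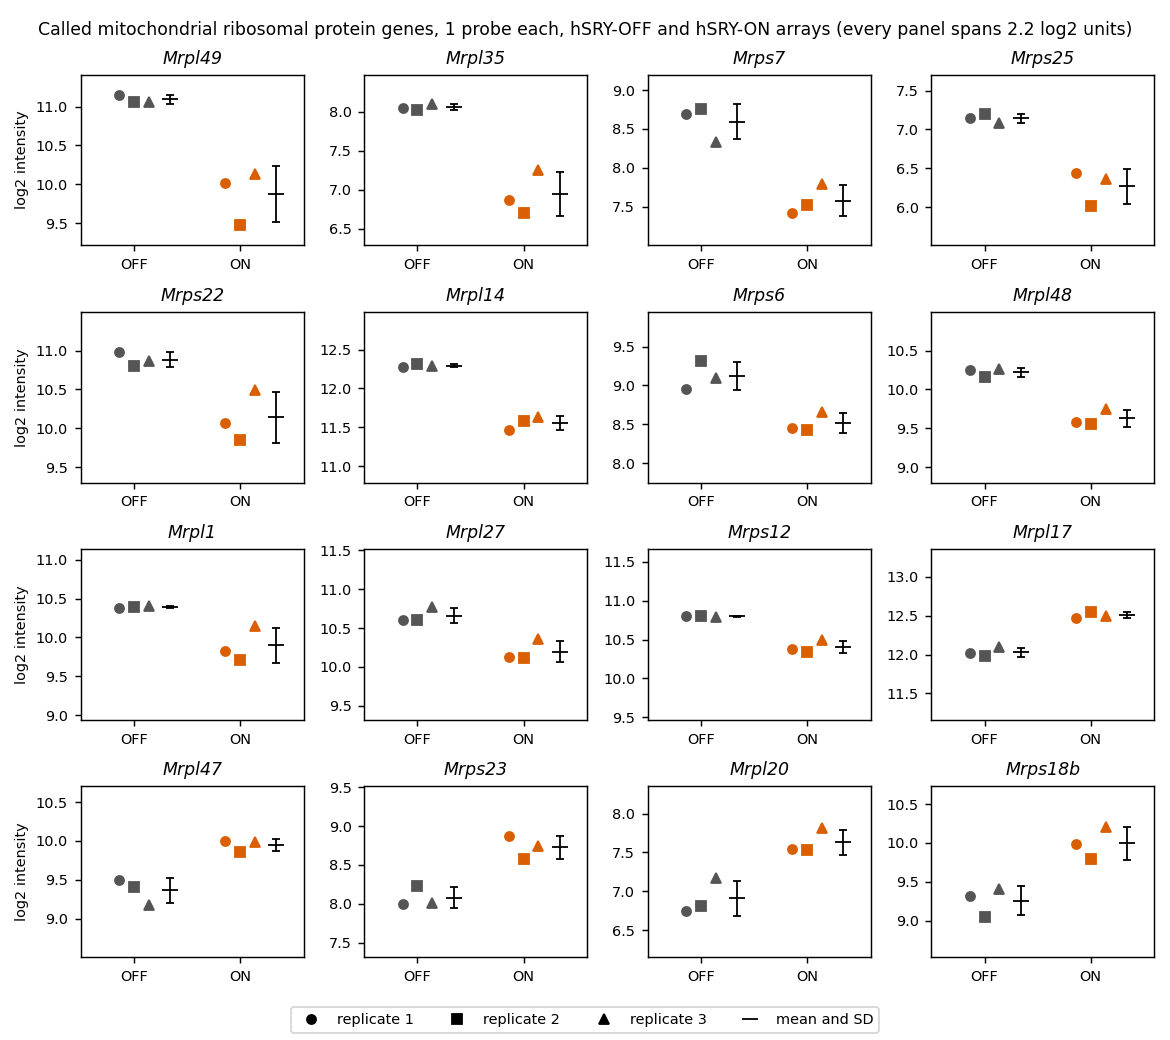
Normalized log2 intensity (y axis) of the 16 called genes on each array, at the most changed probe of each gene; grey symbols are the 3 hSRY-OFF arrays, orange symbols the 3 hSRY-ON arrays, symbol shapes give the replicate and bars the mean and SD. Groups are separate in all 16 panels, and among the 11 lower genes hSRY-ON replicate 3 is mostly the one nearest to hSRY-OFF.

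The hSRY-ON arrays were not equally far from hSRY-OFF. Among the 15 lower member probes, hSRY-ON replicate 3 was nearest to the hSRY-OFF mean at 14 and replicate 2 was farthest at 13. Over all 1851 probes called lower, the same arrays were nearest at 47.6% and farthest at 45.3%. Among the 6 higher member probes replicate 2 was nearest at 5, beside 30.2% of all 1700 higher probes. Member probes were also more spread in hSRY-ON, with a median SD of 0.15 there and 0.09 in hSRY-OFF, beside 0.21 and 0.14 over all tested probes.

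Other proteins singled out by name were not called. *Mrpl12*, the stalk protein that also binds the mitochondrial RNA polymerase, read 11.93, 11.83 and 11.96 in hSRY-OFF and 12.08, 11.78 and 12.37 in hSRY-ON (log2 difference 0.17, 95% interval -0.22 to 0.56). *Mrpl11*, the other conserved protein of the factor-binding region, had a log2 difference of -0.09 (-0.42 to 0.24). *Mrpl16* stood at -0.26 (-0.55 to 0.03) and *Mrps16*, a protein whose loss in people impairs mitochondrial translation, at -0.25 (-0.63 to 0.13). *Mrps30*, which sits in the large subunit despite its name, stood at 0.17 (-0.09 to 0.43). *Mrps34* stood at 0.10 (-0.15 to 0.36), turning to -0.08 with median scaling and -0.04 with trimmed-mean scaling. No probe carried the symbols *Mrpl41* or *Mrps36*.

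Probes of the same gene pointed the same way. Of the 15 genes with several tested probes, 15 had a single direction over their probes and 12 had a single call. *Mrpl48*, *Mrps25* and *Mrps7* were the exceptions on the call. The widest gap between probes of a gene was that of *Mrps7* (0.92 log2 units between its differences), against 0.38 for the 4 *Mrpl49* probes and 0.01 for the *Mrps18b* pair.

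Large-subunit and small-subunit probes had similar medians. Of 48 tested large-subunit probes 3 were higher (6.25%) and 10 lower (20.8%), with a median difference of -0.16. Of 35 small-subunit probes 3 were higher (8.57%) and 5 lower (14.3%), with a median of -0.10. Over all tested probes 15.8% were higher and 17.2% lower. Lower calls were thus near that share in both subunits, and higher calls were under it. The medians lay 0.06 apart, and the large-minus-small gap in median shift was 0.07, -0.06 and -0.10 on the 3 hSRY-ON arrays, so its sign was not the same on all 3. Moving *Mrps30* and *Mrps18a* to the large subunit, where their proteins sit, left the medians at -0.16 and -0.10. Over all tested probes the median was 0.02.

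Proteins with and without a bacterial counterpart were also set side by side, by the numbering of the symbols (Mrpl up to 36, Mrps up to 21 and *Mrps24*). *Mrpl47* and *Mrps28*, which have bacterial counterparts despite their numbers, were moved across. Only these 2 genes were moved, so the split is approximate. Among 48 probes with a bacterial counterpart 5 were higher (10.4%) and 7 lower (14.6%), with a median difference of -0.08. Among the other 35 probes 1 was higher (2.86%) and 8 lower (22.9%), with a median of -0.20. Over all tested probes 15.8% were higher and 17.2% lower. The 7 lower probes belong to 7 genes and the 8 lower probes to 4 genes, as 4 are *Mrpl49* probes and 2 are *Mrpl48* probes. By number alone the counts were 4 and 7 of 46 and 2 and 8 of 37, with the same medians. As members are not replicates, no test was made of these gaps.

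**Figure D3:**
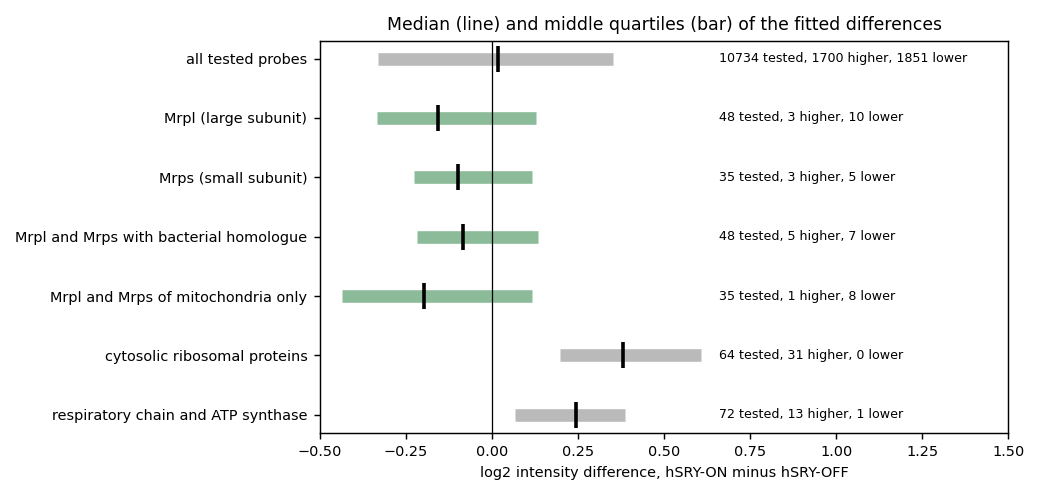
Median (black line) and middle quartiles (bar) of the fitted log2 difference (x axis, hSRY-ON minus hSRY-OFF) for all tested probes, 4 divisions of the mitochondrial ribosomal proteins (green), cytosolic ribosomal proteins, and respiratory chain and ATP synthase subunits, with the numbers tested and called at the right. All 4 green medians lie between -0.20 and -0.08, and those of the last 2 groups are at 0.38 and 0.24.

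The ribosome of the cytosol and the enzyme complexes that mitochondrial translation serves had positive medians in these livers. Of 64 tested probes for cytosolic ribosomal proteins 31 were higher (48.4%, beside 15.8% of all probes) and 0 lower (median difference 0.38). Of 72 probes for nuclear-encoded subunits of the respiratory chain and ATP synthase 13 were higher (18.1%, near the 15.8% of all probes) and 1 lower (median 0.24). The lower one was *Atp5s*, now *Dmac2l*, which is not itself an ATP synthase subunit. All probes of this group, the higher ones included, were taken by symbol pattern alone, and its largest difference was 3.68. By array, the median shift of the mitochondrial ribosomal proteins from the hSRY-OFF mean of each probe was -0.14, -0.19 and -0.03 on the hSRY-ON arrays and 0.00, -0.04 and 0.03 on the hSRY-OFF arrays. For cytosolic ribosomal proteins the hSRY-ON shifts were 0.35, 0.45 and 0.37, and for the respiratory chain 0.37, 0.17 and 0.18. On each hSRY-ON array both of those groups thus lay above the mitochondrial ribosomal proteins, and for the mitochondrial ribosomal proteins hSRY-ON replicate 3 lay within the range of the hSRY-OFF arrays. With median scaling the medians became -0.24 for the members, 0.31 for cytosolic ribosomal proteins and 0.11 for the respiratory chain, beside -0.04 over all tested probes.

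**Figure D4:**
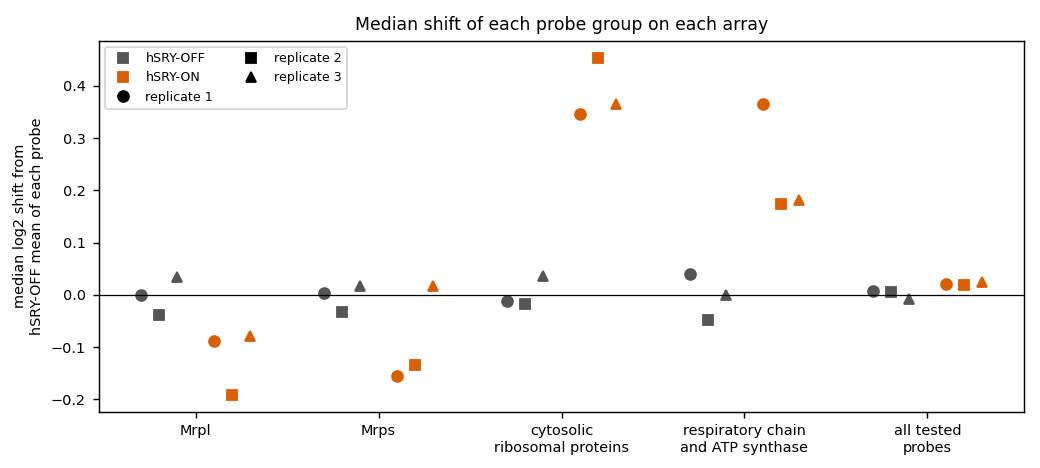
Median log2 shift of each probe group from the hSRY-OFF mean of its probes (y axis) on each of the 6 arrays; grey is hSRY-OFF, orange hSRY-ON, and symbol shapes give the replicate. Cytosolic ribosomal proteins lie between 0.35 and 0.45 on the hSRY-ON arrays, while Mrpl and Mrps probes lie between -0.19 and 0.02.

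Around the ribosome, the protein factors that run mitochondrial translation gave only lower calls. Of the 15 genes on this list 11 were tested with 17 probes, of which 5 were lower and 0 higher. That is 29.4% lower, beside 17.2% of all probes. The difference was negative at 17 of 17 probes, with a median of -0.39. *Mtrf1*, a release factor of the mitochondrial ribosome, was lower at both tested probes. One read 7.17, 7.13 and 6.79 in hSRY-OFF and 6.35, 6.49 and 6.02 in hSRY-ON (1.68-fold lower, adjusted p = 0.0151), and the other had a log2 difference of -0.61. *Mtif3*, the initiation factor, read 7.81, 7.80 and 7.79 against 7.27, 6.95 and 7.25 (1.56-fold lower, adjusted p = 0.0095). *Gfm2*, listed as A930009M04Rik and needed to recycle ribosomes after termination, read 9.50, 9.33 and 9.46 against 9.01, 8.73 and 8.81 (1.49-fold lower, adjusted p = 0.0129). These 3 were named after their values were seen. *Tufm*, the elongation factor that brings transfer RNA to the ribosome, read 13.04, 13.01 and 12.90 against 12.75, 12.55 and 12.45 (log2 difference -0.40, SE 0.13, adjusted p = 0.0462). The *Tufm* call was lost without any one array other than hSRY-ON replicate 1 (adjusted p 0.0774 to 0.1454), without a filter (0.0517) and with a detection p under 0.05 (0.0544). The calls of *Mtrf1*, *Mtif3* and *Gfm2* were not followed through these alternatives. *Lrpprc*, which stabilises mitochondrial messengers, had 3 probes at -0.12, -0.23 and -0.25, none called.

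Mitochondrial aminoacyl-tRNA synthetases, which charge the transfer RNAs, were mixed. Of 14 tested probes for 11 genes, 4 were lower (28.6%, beside 17.2% of all probes) and 1 higher (7.14%, beside 15.8%), with a median of -0.15. Among the lower ones were *Pars2* (log2 difference -0.97 at 1 of its 2 probes), *Sars2* (-0.90) and *Lars2* (-0.74), and the higher one was 1 of 3 *Rars2* probes (0.47). These 4 genes were named after their values were seen.

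Factors that assemble the ribosome or modify its RNA showed no common direction, with 2 probes higher and 1 lower of 19 for 15 genes and a median of 0.05. That is 10.5% higher and 5.26% lower, beside 15.8% and 17.2% of all probes, so both shares were under the background. *Ddx28*, an RNA helicase of large-subunit assembly, rose from 8.74, 8.92 and 8.89 to 10.33, 10.68 and 9.95 (2.77-fold, adjusted p = 0.0018). *Noa1*, listed as 2610024G14Rik and a GTPase of ribosome assembly, was higher at 1 of its 3 probes (log2 difference 0.49). *Nsun4*, an RNA methyltransferase of the ribosome, was lower (-0.60, adjusted p = 0.0076). These 3 were named after their values were seen.

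Some proteins of this ribosome carry other names. Of 9 tested probes for 6 genes 0 were higher (beside 15.8% of all probes) and 1 lower (11.1%, beside 17.2%), with a median of -0.04. *Dap3*, a small-subunit protein first described in cell death, had 4 probes at -0.44, -0.04, 0.12 and 0.21, none called, and so with no single direction. *Ict1*, a peptidyl-tRNA hydrolase built into the large subunit, stood at -0.28 (adjusted p = 0.115). *Mrp63*, now *Mrpl57*, was detected on all 3 arrays of hSRY-OFF and on 0 of hSRY-ON, with mean log2 levels of 5.92 and 5.14. It is the 1 lower probe of this list and passed the detection filter through hSRY-OFF alone, so nothing is read from that count. Against the lowest detected signal its mean difference was at least 1.16-fold. For the same reason its limma adjusted p of 0.0054 is not taken as support for a fall. Without background correction, with trimmed-mean scaling, it was not called (adjusted p = 0.0790).

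Regulators of mitochondrial gene expression gave calls in 1 direction. Of 16 probes for 13 genes of mitochondrial DNA transcription and copying, 4 were higher (25%, beside 15.8% of all probes) and 0 lower, with a median of 0.09. *Ppargc1a*, the coactivator of mitochondrial biogenesis, read 6.20, 6.59 and 7.28 in hSRY-OFF and 8.11, 9.61 and 7.46 in hSRY-ON (3.26-fold higher, SE 0.53 on the log2 scale, adjusted p = 0.0448). The groups only just failed to overlap, and the call was lost without any one array other than hSRY-ON replicate 3 (adjusted p 0.0524 to 0.1449). It was also lost without background correction (0.0628 with quantile normalization, 0.0535 with trimmed-mean scaling), without a filter (0.1011) and with a trended, robust variance (0.0511). Its relative *Ppargc1b* read 7.39, 6.78 and 6.82 against 8.93, 9.19 and 7.90 (3.20-fold higher, adjusted p = 0.0097). *Esrra*, a nuclear receptor that both coactivators bind, read 9.27, 9.13 and 9.04 against 10.43, 10.27 and 10.01 (2.13-fold higher, adjusted p = 0.0020). The last 2 were named after their values were seen, and their calls were not followed through the alternatives given for *Ppargc1a*. *Polrmt*, the mitochondrial RNA polymerase, stood at 0.09, and *Tfam*, the protein that packs mitochondrial DNA, at -0.32 and -0.33 at its 2 probes, none of them called. For protein import, 4 of 23 probes were higher (17.4%, beside 15.8% of all probes). They were *Timm10* (log2 difference 0.85), *Timm17a* (0.78), 1 of 3 tested *Timm9* probes (0.52) and 1 of 2 *Hspa9* probes (0.50), and 1 *Dnajc19* probe was lower (-0.57), with a median of 0.25. These import genes were also named after their values were seen.

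**Figure D5:**
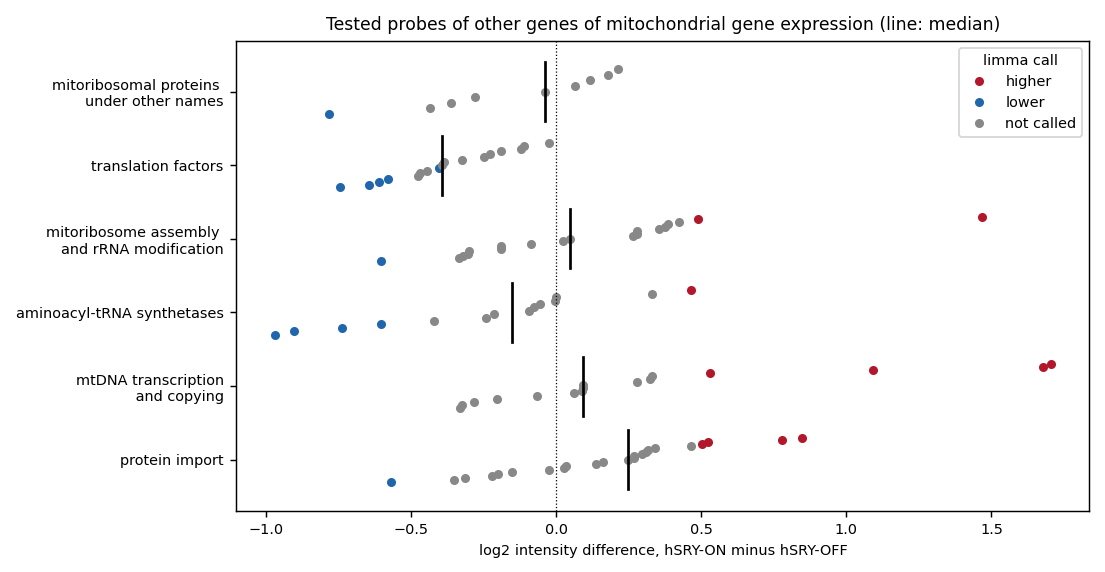
Fitted log2 difference (x axis, hSRY-ON minus hSRY-OFF) of every tested probe in 6 lists of genes of mitochondrial gene expression (rows), coloured by limma call, with the median of each list as a black line. All 17 probes for translation factors lie below 0, and the highest points of the transcription list are *Ppargc1a* and *Ppargc1b* at 1.70 and 1.68.

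Promoter sequence was examined because members moved in both directions. Windows of 250 bases before each start came from RefSeq on GRCm38.p6, and 63 member genes had 69 of them. Each of 5 motifs was searched on both strands and without regard to overlap with the others. The motif of NRF1, CGCANGCGC, was found in 18.8% of member windows and 5.19% of all windows. That of ETS factors, CCGGAAG, was found in 24.6% and 6.91%, and that of YY1, AAGATGGC, in 5.8% and 1.56%. The SP1 motif, GGGCGG, was found in 49.3% and 32.7%, and the E-box, CACGTG, in 10.1% and 6.02%. In windows of cytosolic ribosomal protein genes the NRF1 motif was found in 2 of 75 and the ETS motif in 25.3%. By call, the NRF1 motif was found in 2 of 5 windows of higher members, 1 of 14 of lower members and 7 of 44 of members without a call. In the same order, the ETS motif was found in 1, 3 and 13 windows and the SP1 motif in 2, 9 and 20. The YY1 motif was found in 0, 1 and 2 windows and the E-box in 1, 0 and 6. Whether any motif goes with the direction of the difference was not tested. The matches describe these letters only.

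Stretches are printed for 3 of the 7 called genes with a head-to-head neighbour, those whose neighbour's start is 131 to 192 bases away, and for 2 lower and 2 higher genes with no start on the other strand in the window. These genes were picked with their values known, and the stretches read 5′ to 3′ on the strand of the member, up to the base before its start, with motif matches in capitals. For the 3 head-to-head genes the stretch holds only the bases between both starts. *Mrpl49* (chr19:6057756-6057946, minus strand, 191 bases, head to head with *Fau*) has 2 SP1 matches, *Mrpl14* (chr17:45686219-45686348, plus strand, 130 bases, with *Tmem63b*) has 1, and *Mrps12* (chr7:28741822-28741967, minus strand, 146 bases, with *Sars2*) has 1. *Mrpl35* (chr6:71823785-71824034, minus strand) has 0 matches to the 5 motifs. *Mrps22* (chr9:98601680-98601929, minus strand) has an SP1 match and, close to the start, an ETS match. The higher gene *Mrpl17* (chr7:105811088-105811337, minus strand) has 2 NRF1, 1 ETS and 3 SP1 matches, of which the ETS match overlaps an SP1 match. *Mrps18b* (chr17:35916441-35916690, minus strand) has 1 NRF1 and 2 SP1 matches. The 2 higher genes printed here are those that hold the 2 NRF1-matched windows, out of 5 windows of higher members.
Mrpl49: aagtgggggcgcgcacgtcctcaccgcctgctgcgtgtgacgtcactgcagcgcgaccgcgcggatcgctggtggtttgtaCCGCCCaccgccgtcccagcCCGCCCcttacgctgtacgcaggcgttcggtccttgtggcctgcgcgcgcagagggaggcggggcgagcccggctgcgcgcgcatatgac
Mrpl14: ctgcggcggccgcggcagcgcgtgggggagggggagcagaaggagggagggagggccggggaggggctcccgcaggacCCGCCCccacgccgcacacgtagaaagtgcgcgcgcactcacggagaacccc
Mrps12: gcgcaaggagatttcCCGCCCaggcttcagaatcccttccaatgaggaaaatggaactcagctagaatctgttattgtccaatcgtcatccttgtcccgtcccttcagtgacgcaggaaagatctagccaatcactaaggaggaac
Mrpl35: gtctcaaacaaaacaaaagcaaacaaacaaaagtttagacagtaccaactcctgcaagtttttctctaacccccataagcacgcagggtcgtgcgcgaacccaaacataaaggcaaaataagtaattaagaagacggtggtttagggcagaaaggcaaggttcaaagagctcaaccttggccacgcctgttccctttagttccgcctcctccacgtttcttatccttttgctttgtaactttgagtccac
Mrps22: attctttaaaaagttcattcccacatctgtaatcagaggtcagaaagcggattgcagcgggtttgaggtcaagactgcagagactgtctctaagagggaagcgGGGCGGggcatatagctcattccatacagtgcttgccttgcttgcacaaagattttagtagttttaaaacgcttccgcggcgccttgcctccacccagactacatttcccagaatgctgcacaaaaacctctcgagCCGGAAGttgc
Mrpl17: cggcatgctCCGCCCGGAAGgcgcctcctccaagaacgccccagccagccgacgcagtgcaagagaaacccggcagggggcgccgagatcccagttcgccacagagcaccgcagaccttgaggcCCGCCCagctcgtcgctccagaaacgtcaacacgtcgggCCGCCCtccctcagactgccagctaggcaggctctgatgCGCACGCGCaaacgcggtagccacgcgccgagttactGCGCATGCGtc
Mrps18b: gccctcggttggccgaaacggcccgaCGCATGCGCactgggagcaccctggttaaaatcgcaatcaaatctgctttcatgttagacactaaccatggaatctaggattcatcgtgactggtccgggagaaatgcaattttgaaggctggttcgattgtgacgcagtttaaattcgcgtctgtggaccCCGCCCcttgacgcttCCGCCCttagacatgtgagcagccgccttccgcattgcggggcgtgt

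Head-to-head genes can share a promoter, and 24 members had a neighbour on the other strand that starts within 1000 bases upstream, in 23 distinct pairs. Both genes were tested in 14 pairs, and the median differences had the same sign in 9 and opposite signs in 5. Both genes were called in 2 pairs, in the same direction each time. *Mrpl14* and *Tmem63b*, a membrane channel gene, stood at -0.74 and -0.96, and *Mrps12* and *Sars2*, the mitochondrial seryl-tRNA synthetase, at -0.40 and -0.90. *Sars2* read 7.26, 7.17 and 7.39 in hSRY-OFF and 6.33, 5.94 and 6.85 in hSRY-ON, also without overlap. *Mrps18b*, higher at 0.73, and *Ppp1r10*, at -0.21 and not called, ran in opposite directions. So did *Mrpl18*, at -0.33 and not called, and *Tcp1*, higher at 0.92 and the remaining called neighbour among the tested pairs. *Mrpl49* is head to head with *Fau*, which had no tested probe. *Mrpl46* and *Mrps11*, both members, share a promoter region and stood at -0.16 and -0.20, not called.

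Cell type markers were read beside these results, with 15.8% of all tested probes higher and 17.2% lower as the background. The erythroid share (16.7% higher) and the share for dividing cells (14.3% lower) were near it. Of 8 tested hepatocyte probes 4 were lower and 0 higher, while their summed level, on the log2 scale, was 16.35 to 16.50 in hSRY-OFF and 16.27 to 16.54 in hSRY-ON, with *Tat* detected on 0 arrays. Stellate cell markers were higher at 5 of 8 probes and lower at 1, with a summed level of 11.46 to 11.75 in hSRY-OFF and 13.64 to 13.90 in hSRY-ON. Of the 5 higher probes 4 belong to *Acta2* (log2 differences 2.46 to 3.13), an actin also made by smooth muscle, and 1 to *Des* (0.77), while *Lrat* was lower (-1.66) and *Col1a1* (-0.47) and *Col3a1* (-0.21) were not called. Kupffer cell and macrophage markers were lower at 4 of 9 and higher at 1 (12.63 to 13.07 against 12.08 to 12.46, *Cd5l* on 0 arrays). Endothelial markers were higher at 3 of 5 (11.10 to 11.37 against 11.45 to 11.77, *Kdr* on 0 arrays), and markers of dividing cells lower at 1 of 7 (12.97 to 13.27 against 12.45 to 13.12, *Ccna2* on 0 arrays). Erythroid markers were higher at 1 of 6 (15.96 to 16.32 against 16.29 to 16.49), and neutrophil markers were called at 0 of 9 (15.47 to 15.67 against 14.87 to 16.47). Of the biliary markers *Krt19* and *Sox9* were detected on 0 arrays. The part of cell makeup in the differences of the ribosomal proteins was not tested.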

How the data were processed

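The authors measured total liver RNA on Illumina MouseRef-8 bead arrays, 1 array per mouse. The deposited intensity values are mean bead signals per probe, neither background-subtracted nor normalized by the authors. The deposited detection p-value ranks a probe among the negative control beads of its array. The submitters' processing notes name limma, and the study's methods name TCC, a package for counts, which was not applied to intensities. Scanner software and genome build were not given in the sources used here. Between 40.2% and 41.9% of probes were detected per array, and the number of arrays limits the precision.

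The background was inferred from the detection p-values (limma 3.58.1 in R 4.3.3, function nec, offset 16), followed by quantile normalization and log2. Probes with detection p under 0.01 on at least 3 of 6 arrays (10734) were fitted with lmFit and eBayes, hSRY-ON against hSRY-OFF, without covariates, and p-values were adjusted by Benjamini-Hochberg over all of them, with a threshold of 0.05. Fold changes are on this background-corrected scale. The fit was run on simulated data with fewer and larger changes than here and the same spread in both groups. That run does not show how differences as small as most of these are called. Groups and replicate numbers came from the sample labels. The members and gene lists were chosen with earlier results of these data known. Per-array values are given for the 5 largest rises and 5 largest falls per subunit among called probes without overlap, and for a list of genes fixed by name, and exceptions are stated. The values of 1 called gene are not reported here. All 72 member symbols matched RefSeq. Older symbols were brought up to date through RefSeq, and motifs, whose letters were settled with the values known, were counted in RefSeq promoter windows with Python 3.11.15 and pandas 2.3.3. Figures were drawn with matplotlib 3.10.9. Alternatives covered background, normalization, filter, variance model, probes per gene, threshold, replicate block, subunit assignment and leaving out each array.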

Additional observations from a re-analysis of the deposited data

How the results depend on the processing

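The counts over all members, 6 higher and 15 lower, stayed within 1.5 times under every alternative run except a stricter threshold, 1 probe per symbol and the loss of an hSRY-OFF array. With an adjusted p under 0.01, 1 member was higher and 7 were lower (large subunit 0 and 5, small subunit 1 and 2), when 15.5% of all probes were called. With 1 probe per symbol, chosen as the brightest, 8 members were lower (5 large, 3 small) and the large-subunit median difference was -0.0577. In that setting 13 members were called (20.3%, beside 34.4% of all probes). Higher large-subunit probes numbered 5 with array weights, 5 without background correction and 1 with median scaling, under which the medians were -0.2467 (large) and -0.2346 (small). Without a filter the large-subunit median was -0.0929. The cause of these shifts was not tested. Leaving out each array in turn gave 3 to 7 higher and 8 to 19 lower members, 1 to 3 and 5 to 13 in the large subunit, and 2 to 4 and 2 to 6 in the small subunit. The medians then ran from -0.1502 to -0.1228 (large) and from -0.179 to -0.0528 (small), and their gap from -0.0854 to 0.0334, which is positive without hSRY-ON replicate 3 or hSRY-OFF replicate 1 (0.0051). That gap was also positive with 1 probe per symbol (0.016), array weights (0.0099), no filter (0.0209) and trimmed-mean scaling (0.0122). Among genes named without a call, the sign turned for *Mrps34* (-0.079 with median scaling, -0.0415 with trimmed-mean scaling), for 2 *Dap3* probes (one -0.0216 with median scaling, the other from -0.0672 to 0.0119 when leaving out each array), for a *Lrpprc* probe (-0.2687 to 0.0444) and for *Polrmt* (-0.0046 to 0.1917). The turned values are those without hSRY-OFF replicate 3 for *Dap3* and without hSRY-ON replicate 2 for the other two. The labels do not state that the replicate numbers pair the samples. Same-numbered arrays had correlations of deviations from the group means of 0.02, 0.10 and 0.05, and not every array correlated best with its own number. With 3 arrays a group these values cannot settle whether a pairing exists. With the replicate block 19 members were called (6 higher and 13 lower, all among the 21), and the calls of *Mrpl1*, *Mrps12*, *Tufm* and *Ppargc1a* were lost. With 3 arrays a group, and 20 untested probes at background on every array, small changes of dim transcripts could not be seen here. Genes in place of probes, an alternative chosen after seeing the data, gave 5 higher and 11 lower. Genes of the other lists that were named after their values were seen were not followed through the alternatives above.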
